A study of Bos taurus with 18 samples.

Results

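Cytosolic HSP90 and 7 of its cochaperones were followed at the transcript level in MAC-T, an established bovine cell line of mammary epithelial origin. The 9 genes were chosen by name, with earlier results of these data known. They are the 2 genes of the cytosolic chaperone itself (HSP90AA1 and HSP90AB1) and the cochaperone genes FKBP4, STIP1, AHSA1, CHORDC1, CACYBP, PTGES3 and CDC37. All 9 were among the 30642 genes of the count table, and all 9 were among the 15158 genes with enough reads to be tested. Poly-A RNA was sequenced from 18 libraries in 6 groups of 3. Every group was cultured for 4 days, up to the heat at 37 °C, in serum-containing high-glucose DMEM with antibiotics, glutamine, insulin (5 µg/ml) and hydrocortisone (1 µg/ml). Unheated cells were either undifferentiated (NHSUD) or differentiated (NHSD), the latter in lactogenic medium, which adds serum, ovine prolactin (5 µg/ml) and dexamethasone (10 µg/ml). Heated cells, again undifferentiated (HSUD) or differentiated (HSD), were held at 42 °C for 1 h and collected at once. The remaining groups of differentiated cells were heated in the same way and returned to 37 °C for 2 h (D2R) or 6 h (D6R). All groups therefore carried a glucocorticoid, and a single unheated differentiated group served both recovery times. The labels place both unheated groups on 1 plate, both heated groups on another and both recovery groups on plate III, so heat or recovery and the plate cannot be told apart. Each library pooled RNA of 2 technical replicates, and the whole experiment was repeated 3 times per the labels. The replicate number is called the run here, since libraries of the same number varied together, and some fits carry it as a block.

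HSP90 is an abundant ATP-driven chaperone that holds client proteins, such as steroid receptors and many kinases, in a form that can be activated. HSP90AA1 codes for the alpha form, which is known as the stress-inducible one, and HSP90AB1 for the beta form, which is known as the constitutive one. The cochaperones act at different steps of the cycle. STIP1 (also called HOP) bridges HSP70 and HSP90 and passes clients on, CDC37 brings kinases, AHSA1 stimulates the ATPase, PTGES3 (p23) stabilises the closed form, and FKBP4 (FKBP52) is an immunophilin of mature steroid receptor complexes. CHORDC1 (morgana) and CACYBP are further HSP90-binding proteins of the CS-domain kind. Free HSP90 is also known to hold back the heat shock factor HSF1, which drives transcription of many chaperone genes.

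Library totals ran from 40891703 to 61155755 counts, and the scaling factors (TMM, a correction for composition) from 0.883 to 1.09. The epithelial label held, with 7 of 7 epithelial markers above 1 CPM (counts divided by a TMM-scaled library size, per 1e6) at the median and their summed level at 14167 to 25288 CPM. Milk protein genes were at or near 0 in all groups, and the summed level of the 6 luminal secretory markers did not exceed 0.316 CPM. Of the 6 fibroblast markers 2 exceeded 1 CPM (DCN and PDGFRA, with a list sum of 427 to 820.2 CPM), while COL1A1 and COL1A2 did not exceed 0.347 CPM. The fibroblast sums overlapped between all groups, as did the endothelial ones. The epithelial sums overlapped between heated and unheated cells of the same medium but were higher in NHSUD (19538 to 22802 CPM) and HSUD (19333 to 25288) than in NHSD (16864 to 18639) and D6R (14167 to 18696), without overlap, and their part in the results was not tested. Endothelial markers summed to 0.794 to 4.26 CPM (1 of 4 above 1 CPM, VWF). Counting error was small for the 9 genes, since the lowest count of any of them in a library was 2709 (CHORDC1), for which counting alone gives an error of 1.92%. This takes each count as an independent fragment, and the error is larger if both mates of a pair were counted. In these bulk samples, fewer expressing cells and less RNA per cell cannot be told apart.

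HSP90AA1 was called as higher after heat and at both recovery times, a call being an adjusted p under 0.05 in edgeR's test of all 15158 genes. Without heat its libraries of runs 1 to 3 were at 1475, 1502 and 1273 CPM in NHSUD and at 1345, 1437 and 1193 CPM in NHSD. After 1 h at 42 °C they were at 3184, 2875 and 2554 CPM in HSUD and at 2905, 2683 and 2321 CPM in HSD. Every heated library lay above every unheated one. Back at 37 °C the libraries were at 2618, 3550.1 and 3190.2 CPM in D2R and 2924, 2855 and 3101 CPM in D6R, which overlapped with HSD and lay above every unheated library. With the media averaged, heat raised it by 1.01 ± 0.10 on the log2 scale (SE; edgeR quasi-likelihood test, adjusted p of 4.9e-05), that is 2.01-fold, and this call held without any 1 of the 12 compared libraries. The rises within a medium had adjusted p-values of 0.0047 in undifferentiated and 0.00657 in differentiated cells. The former was lost without NHSUD replicate 3 (0.0617), and the latter without NHSD replicate 3 (0.0711) or HSD replicate 1 (0.0592). Against NHSD it was 2.35-fold higher at 2 h and 2.23-fold higher at 6 h of recovery (edgeR, 0.00156 and 0.0036). Both recovery calls held without any 1 of the 6 compared libraries, and were lost where only the compared groups were fitted without a block (0.156 and 0.246).

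HSP90AB1 had a smaller change with heat. In the fit of all libraries, with or without the run as a block, edgeR called it over both media and in neither medium alone. HSP90AB1 kept the call over both media in 35 of 44 other fits. Its libraries were at 2727, 2591 and 2503 CPM in NHSUD, 2423, 2604 and 2345 CPM in NHSD, 3692, 3602 and 3381 CPM in HSUD and 3323, 3532 and 3149 CPM in HSD. All 6 heated libraries were above all 6 unheated ones. Recovery libraries were at 2894, 3836 and 3269 CPM in D2R and 3078, 2731 and 3028 CPM in D6R. Those of D6R lay below all 3 HSD libraries and still above all 3 NHSD libraries. Averaged over the media, heat raised HSP90AB1 by 0.44 ± 0.090 on the log2 scale (SE; edgeR, adjusted p of 0.0239, and 0.0014 with the run as a block). Without the block this call was lost in 6 of 12 fits that left out 1 library (0.0605 to 0.0784; NHSUD replicates 2 and 3, NHSD replicate 3, HSUD replicate 1, and HSD replicates 1 and 2), while with the block it was kept in all 12. Within 1 medium it was not called (0.403 and 0.51; 0.0578 and 0.0735 with the block), with run-wise changes of 0.44, 0.48 and 0.43 in undifferentiated and 0.46, 0.44 and 0.43 in differentiated cells. Neither recovery time was called against NHSD by edgeR. The change was 0.44 ± 0.13 in D2R (edgeR, adjusted p of 0.905; 0.114 with the block) and 0.26 ± 0.13 in D6R (0.85; 0.219 with the block), and in both the level was above that of NHSD in 3 of 3 runs.

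**Figure D1:**
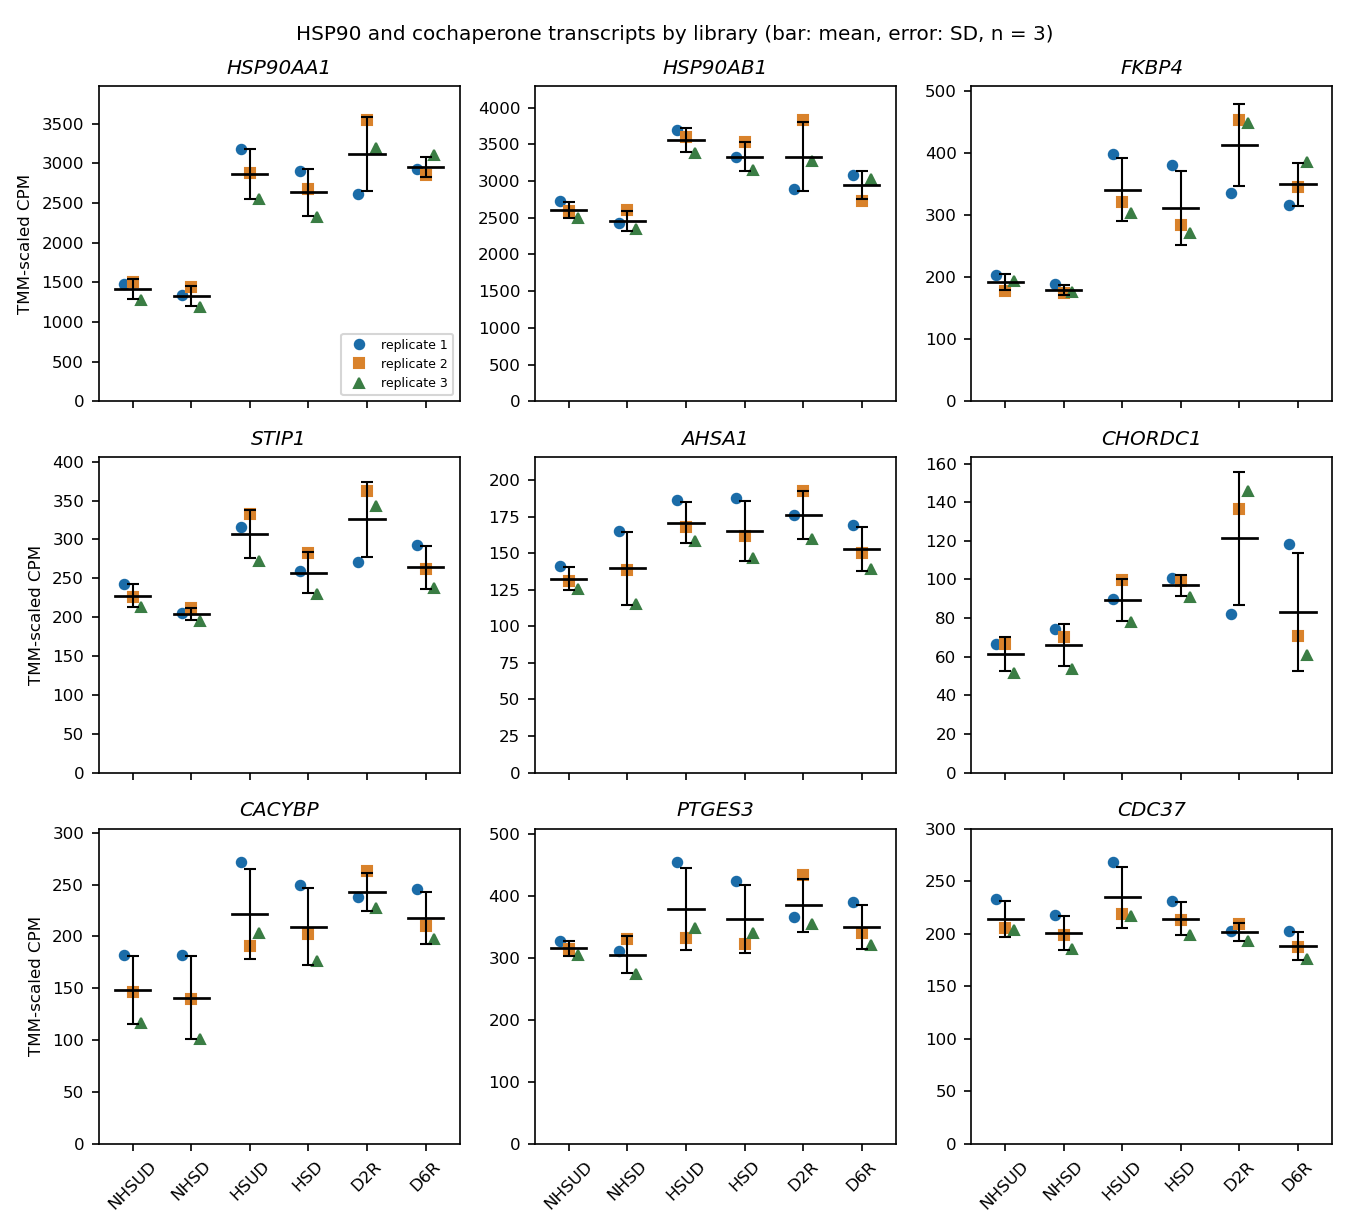
Level of each of the 9 transcripts (y axes, TMM-scaled CPM from 0) in the 6 groups (x axis), with 1 point per library, its shape and colour giving the replicate number, and the mean and SD of 3 libraries as bars. HSP90AA1, HSP90AB1, FKBP4 and CHORDC1 show a gap between all unheated libraries and all HSUD and HSD libraries, a narrow one for CHORDC1 (74.4 to 77.8 CPM). The unheated libraries of CDC37 lie within the range of the others.

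The balance between the 2 genes was read as HSP90AA1 reads per HSP90AB1 read, a ratio within a library that depends on neither depth nor scaling. Its absolute value also reflects transcript length, so only its changes were compared. The ratio was 0.541, 0.58 and 0.509 in NHSUD and 0.555, 0.552 and 0.509 in NHSD for runs 1 to 3, and 0.862, 0.798 and 0.756 in HSUD and 0.874, 0.759 and 0.737 in HSD. Heated libraries started at 0.737 and unheated ones ended at 0.58. The mean log2 ratio was 0.56 higher with heat (1.47-fold; exact two-sided permutation test of 6 against 6 libraries, p = 0.00216, the smallest that the 924 splits allow). This test treats the libraries as exchangeable, although they come from 3 runs and those of the same run varied together. Its p-value therefore overstates the number of independent repeats. The log2 ratio was higher by 0.67, 0.46 and 0.57 in the 3 runs of undifferentiated cells and by 0.65, 0.46 and 0.53 in those of differentiated cells. In recovery it was 0.905, 0.926 and 0.976 in D2R and 0.95, 1.05 and 1.02 in D6R. From the end of heat to 6 h the log2 ratio increased in 3 of 3 runs, by 0.12, 0.46 and 0.47, and from 2 h to 6 h also in 3 of 3 runs, by 0.071, 0.18 and 0.069. D6R libraries were all above HSD libraries and overlapped with D2R. With 3 libraries against 3 the exact test cannot go below p = 0.1, so the recovery ratios are given without a test.

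**Figure D2:**
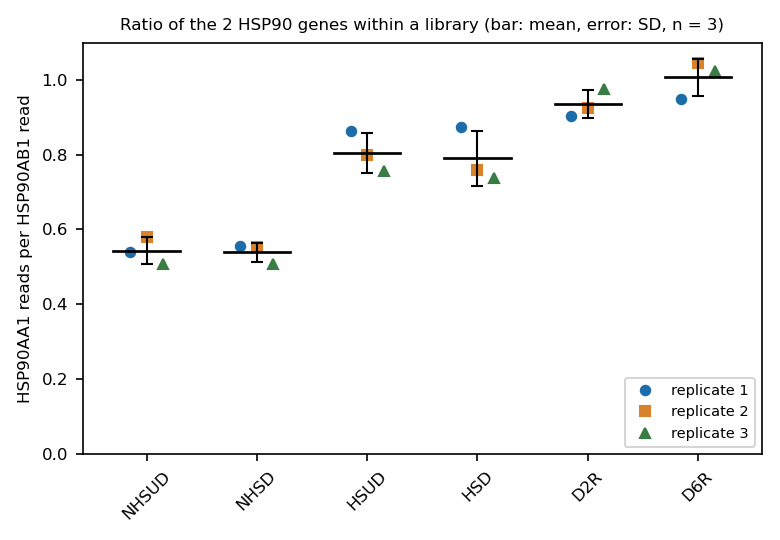
HSP90AA1 reads per HSP90AB1 read (y axis, from 0) in each library of the 6 groups (x axis), with points by replicate number and the mean and SD of 3 libraries. Unheated libraries do not exceed 0.58, heated ones start at 0.737, and the D6R libraries run from 0.95 to 1.05.

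Together the 2 genes held 0.405% ± 0.0199 of all counts in NHSUD (SD, n = 3) and 0.391% ± 0.0344 in NHSD. The share was 0.603% ± 0.0565 in HSUD, 0.58% ± 0.0608 in HSD, 0.645% ± 0.0869 in D2R and 0.625% ± 0.0179 in D6R. HSP90AA1 and HSP90AB1 are close copies, and the handling of reads that match both is not given in the sources used here, which makes the value of each alone uncertain. Summed into 1 feature, they changed by 0.67 ± 0.097 with heat over both media (edgeR, adjusted p of 0.0018) and by 0.77 ± 0.14 at 2 h of recovery (0.0433). The sum was not called for heat within 1 medium (0.0762 and 0.0942) or at 6 h (0.64 ± 0.14, 0.265).

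FKBP4, the immunophilin of steroid receptor complexes, had the largest change of the 7 cochaperones in each of the heat and recovery comparisons with unheated cells. Its libraries were at 204, 178 and 194 CPM in NHSUD and 189, 175 and 175 CPM in NHSD, against 399, 322 and 303 CPM in HSUD and 380.3, 284 and 271 CPM in HSD. Recovery libraries were at 336, 454 and 448 CPM in D2R and 316, 346 and 386 CPM in D6R, and all of them exceeded every unheated library. Over both media, heat raised FKBP4 by 0.81 ± 0.11 on the log2 scale (SE; edgeR, adjusted p of 0.000928), a call that held without any 1 of the 12 libraries. In undifferentiated cells alone the adjusted p was 0.0446, and it passed the threshold in none of the 6 fits without 1 compared library (0.0538 to 0.318), and in 4 of 12 without 1 library of another group. In differentiated cells it was 0.072, and 0.0396 without D2R replicate 1. With the run as a block both passed (0.00364 and 0.00683), the former being lost without HSUD replicate 1 (0.0516) and the latter without NHSD replicate 2 (0.051) or 3 (0.0522). At 2 h of recovery FKBP4 was 2.29-fold above NHSD (adjusted p of 0.00248), which held without any 1 of the 6 libraries and was lost in the unblocked fit of both compared groups alone (0.156). At 6 h it was 1.94-fold above NHSD, with an adjusted p of 0.0532, which fell under the threshold without replicate 1 of D6R (0.0455), HSUD (0.0347), HSD (0.0222) or D2R (0.0239), and of 0.00233 with the block, where the call held without any 1 library.

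STIP1, the adaptor between HSP70 and HSP90, was called with the block for heat over both media and at 2 h of recovery, and in the fits of all libraries it was called in no comparison without it. Its libraries were at 243, 226 and 213 CPM in NHSUD, 206, 211 and 195 CPM in NHSD, 316, 333 and 272 CPM in HSUD and 259.8, 282 and 229.9 CPM in HSD. Heated cells were above unheated cells of the same medium in every library. After heat they were at 271, 362 and 343 CPM in D2R and 293, 262 and 238 CPM in D6R. The change with heat over both media was 0.38 ± 0.093 on the log2 scale (SE; edgeR, adjusted p of 0.071, not called), and it was called with the block (0.00483), also without any 1 of the 12 libraries. Within a medium it was not called, at 0.43 ± 0.13 in undifferentiated cells (0.507; 0.0676 with the block) and 0.33 ± 0.13 in differentiated cells (0.933; 0.218). At 2 h of recovery the change against NHSD was 0.67 ± 0.13 (adjusted p of 0.0802; 0.00439 with the block). Without D2R replicate 1, the lowest of its group, it passed in both fits (0.0164 without the block). The blocked call was lost without NHSD replicate 2 (0.0619), D2R replicate 2 (0.0552) or D2R replicate 3 (0.055). At 6 h the change was 0.37 ± 0.13 and not called (0.723; 0.0766 with the block).

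CACYBP, a CS-domain partner also known to bind a ubiquitin ligase complex, was called by edgeR over the full set of libraries only where the run was a block. It was at 182, 147 and 116 CPM in NHSUD and 182, 139.9 and 101 CPM in NHSD for runs 1 to 3, with run 1 highest and run 3 lowest in both. It was at 271, 191 and 203 CPM in HSUD, 249, 203 and 176 CPM in HSD, 238, 264 and 228 CPM in D2R and 245, 210.1 and 198 CPM in D6R. The HSD and NHSD libraries overlapped, yet within each run HSD was the higher one, by 0.45, 0.53 and 0.80 on the log2 scale. Without the block no change was called (edgeR, adjusted p of 0.823, 0.846 and 0.0977 for heat in undifferentiated cells, in differentiated cells and over both media, and 0.61 and 0.682 at 2 h and 6 h). With the block all 5 were called (0.0177, 0.0199, 0.000223, 0.0018 and 0.0102), and the blocked change over both media was 0.59 ± 0.083 (SE). Calls over both media and at 2 h held without any 1 compared library. The other blocked calls did not: for undifferentiated cells it was lost in 5 of 6 such fits (0.0524 to 0.142; all but that without HSUD replicate 2), for differentiated cells in 4 (0.0899 to 0.196; replicates 2 and 3 of NHSD and of HSD), and at 6 h in 3 (0.0549 to 0.0875; NHSD replicates 2 and 3 and D6R replicate 3). Without the block, the change over both media passed when NHSD replicate 1 was left out (0.0325).

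CHORDC1, a CHORD-containing partner of HSP90, had the widest spread of the 9 genes in D2R and in D6R. It was at 66.8, 66.5 and 51.3 CPM in NHSUD, 74.4, 70 and 53.6 CPM in NHSD, 90, 99.5 and 77.8 CPM in HSUD and 101, 99.3 and 90.9 CPM in HSD. Both heated groups were above every unheated library. In D2R it was at 82, 136 and 146 CPM, with replicate 1 below and replicates 2 and 3 above every HSD library. In D6R this was turned round, at 118, 70.6 and 60.9 CPM, with replicate 1 above and replicates 2 and 3 below every HSD library. Heat over both media gave a change of 0.54 ± 0.16 on the log2 scale (SE; edgeR, adjusted p of 0.199; 0.0643 with the block), not called. With the block it was called without D2R replicate 1 (0.00237), D2R replicate 3 (0.029) or D6R replicate 1 (0.0193), libraries outside this comparison. The change at 2 h against NHSD was 0.88 ± 0.23 (0.61; 0.169 with the block) and that at 6 h 0.33 ± 0.23 (0.952; 0.547). Without D2R replicate 1 the blocked change at 2 h was 1.21 and was called (0.000218).

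AHSA1, PTGES3 and CDC37 had the smallest heat estimates of the 9 genes over both media. AHSA1, the ATPase activator, had group means from 133 ± 7.95 CPM in NHSUD (SD, n = 3) to 176 ± 16.5 CPM in D2R. With heat over both media it changed by 0.31 ± 0.098 on the log2 scale (SE; edgeR, adjusted p of 0.244), and was called with the block (0.00549), also without any 1 of the 12 libraries. The 3 run-wise changes were close to each other, at 0.29, 0.29 and 0.34. PTGES3, the p23 cochaperone, had group means from 305 ± 29.2 CPM in NHSD to 384 ± 43.3 CPM in D2R, and its heat change of 0.25 ± 0.10 was not called (0.407; 0.0598 with the block, and 0.0114, 0.0409 and 0.042 with the block and without HSUD replicate 2, D2R replicate 1 or D2R replicate 2). Its runs differed, at 0.46, 0.023 and 0.25. CDC37, the kinase cochaperone, was at 233, 205 and 203 CPM in NHSUD, 217, 199 and 185 CPM in NHSD, 268, 219 and 217 CPM in HSUD, 231, 213 and 199 CPM in HSD, 203, 209.7 and 193 CPM in D2R and 202, 187 and 176 CPM in D6R. Neighbouring groups in the order of its means all overlapped. Its heat change over both media was 0.11 ± 0.082 with a 95% interval of -0.057 to 0.29 (0.656; 0.215 with the block). At 6 h CDC37 was the only one of the 9 genes with an estimate below NHSD, at -0.090 ± 0.12 (interval -0.33 to 0.15; 0.994; 0.632 with the block).

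Counted over the 9 genes, the acute effect of heat was upward. Since the genes were chosen with earlier results of these data known, the shares of all genes set beside these counts are a description. All 9 estimates were above 0 in undifferentiated, in differentiated and over both kinds of cell, as were 51.9%, 49.6% and 50.8% of all genes, with medians of 0.45, 0.44 and 0.44 on the log2 scale, against medians of 0.011, -0.0025 and 0.0045 over all genes tested. Over both media 3 of 9 were called as higher (HSP90AA1, HSP90AB1 and FKBP4) where 0.488% of the 15158 tested genes were, and 6 with the block (STIP1, AHSA1 and CACYBP in addition) where 3.13% of all genes were. In undifferentiated cells 2 were called (HSP90AA1 and FKBP4; 0.119% of all genes) and 3 with the block (0.383%). In differentiated cells 1 was called (HSP90AA1; 0.0858%) and 3 with the block (0.29%). The heated and unheated libraries did not overlap for 8 of 9 genes in undifferentiated cells, where 3.99% of all genes were separate and higher. In differentiated cells they did not overlap for 5 of 9 (3.75%). In every run the change was positive for 9 of 9 genes in undifferentiated cells and for 8 of 9 in differentiated cells (PTGES3 had 0.45, -0.035 and 0.31), against 17.7% and 16% of all genes. Averaged over the media, the change was positive in every run for 9 of 9 (21.8%), and all heated libraries were above all unheated ones for 4 of 9, HSP90AA1, HSP90AB1, FKBP4 and CHORDC1 (0.904%). No call for heat within a medium was left when only the 2 compared groups were fitted without a block, and with the block that fit called 5 of 9 in undifferentiated and 4 of 9 in differentiated cells, where 0.895% and 0.308% of all genes were called as higher. The summed level of the 4 immune markers, of which 1 exceeded 1 CPM (CD68), was also higher in HSUD and HSD at the end of heat, without overlap within a medium. It was 0.947 to 1.34 CPM in NHSUD and 1.26 to 1.64 in NHSD against 1.61 to 2.27 in HSUD and 1.66 to 1.87 in HSD (0.642 to 1.62 in D2R and 1.04 to 1.55 in D6R). PTPRC, which defines leukocytes, was at 0 in 16 of 18 libraries and did not exceed 0.104 CPM.

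Whether the medium altered the response was tested as the difference of the 2 heat effects. None of the 9 genes was called (edgeR, adjusted p of 1 for all 9, and of 1 with the block), as was none of all genes tested (0% in either fit), and 0 of the 9 and 88 of all genes had an unadjusted p under 0.05. DESeq2 called 0 of the 9 as well. The differentiated minus undifferentiated difference was -0.027 for HSP90AA1 with a 95% interval of -0.46 to 0.41, -0.0084 for HSP90AB1 (-0.39 to 0.37) and -0.036 for FKBP4 (-0.50 to 0.42). Over the 9 genes the estimates ran from -0.12 (AHSA1) to 0.021 (CHORDC1), and the intervals of CHORDC1 (-0.67 to 0.71) and CACYBP (-0.63 to 0.61) were the widest. Intervals of this width include differences as large as the smaller heat effects, and the sign of most of these estimates turned with the scaling or with 1 library left out.

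The effect of the lactogenic medium itself was not called for any of the 9 genes. Between NHSD and NHSUD 7 of 9 estimates were below 0, from -0.16 (STIP1) to 0.10 (CHORDC1), and between HSD and HSUD 8 of 9, from -0.25 (STIP1) to 0.12 (CHORDC1). AHSA1 turned above 0 in the latter under scaling by library size. None passed in either pair by edgeR, with or without the block, 0 of 9 had an unadjusted p under 0.05 (253 and 267 of all genes had), and DESeq2 called 0. Of all genes, 0% were called in both pairs, and 0.0066% and 0.0198% with the block. STIP1 was lower in the lactogenic medium in 3 of 3 runs without heat (-0.24, -0.097 and -0.13) and with heat (-0.28, -0.24 and -0.24), where 18.8% and 13.9% of all genes were so. This was not particular to STIP1. Of the 9 genes, 5 were lower in 3 of 3 runs without heat and 6 with heat, with HSP90AA1, FKBP4 and CDC37 among them both times. The NHSD libraries of STIP1 were all below its NHSUD libraries, as for 2.31% of all genes.

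**Figure D3:**
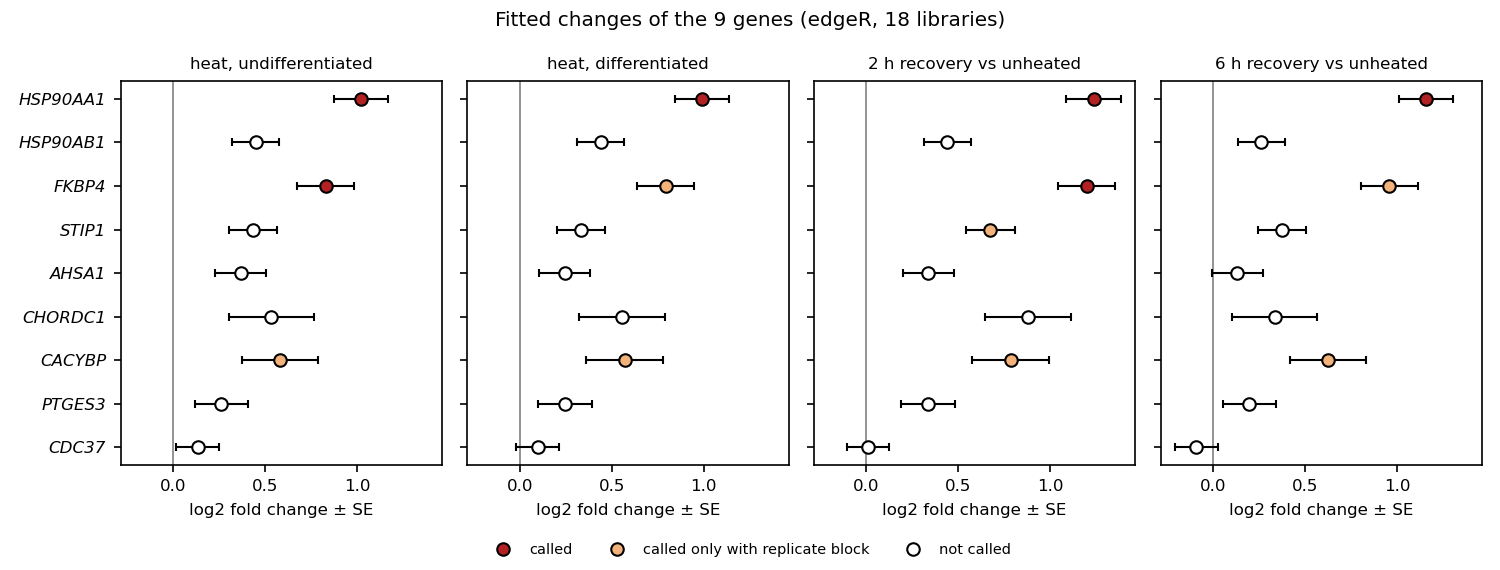
Fitted log2 fold change (x axes) with its SE for the 9 genes (rows) with heat in undifferentiated cells, with heat in differentiated cells, and after 2 h and 6 h of recovery relative to NHSD, where fill marks genes called by edgeR at an adjusted p under 0.05 without or only with the replicate block. HSP90AA1 is called in all 4 panels, and the CDC37 estimates run from -0.090 to 0.13.

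Recovery was first read against unheated differentiated cells. At 2 h all 9 estimates were above 0, as were 48.8% of all genes, except that CDC37 was below 0 under scaling by library size, with a median of 0.67 on the log2 scale (-0.0069 over all genes). edgeR called 2 of 9 (HSP90AA1 and FKBP4), where 0.0792% of all genes were called as higher, and 4 with the block (STIP1 and CACYBP in addition; 0.165%). D2R and NHSD libraries did not overlap for 7 of 9 genes, AHSA1 and CDC37 being the others, against 3.44% of all genes. At 6 h, 8 of 9 estimates were above 0 (49.6% of all genes) with a median of 0.33 (-0.0023 over all genes). HSP90AA1 alone was called (0.0132% of all genes), and 3 were called with the block (FKBP4 and CACYBP in addition; 0.673%). The D6R libraries were above all NHSD libraries for 5 of 9 genes (HSP90AA1, HSP90AB1, FKBP4, STIP1 and CACYBP), against 5.57% of all genes. The heat and recovery comparisons of differentiated cells share the NHSD libraries, so their values are given side by side and not as separate support. For HSP90AA1 the changes against NHSD were 0.99 at the end of heat, 1.23 at 2 h and 1.16 at 6 h. They were 0.44, 0.44 and 0.26 for HSP90AB1, 0.79, 1.20 and 0.96 for FKBP4, and 0.24, 0.34 and 0.13 for AHSA1.

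Direct comparisons within heat and recovery gave no call for any of the 9 genes. Between HSD and D2R, edgeR called 0 of 9 with and without the block (adjusted p of at least 0.234), with 2 (and 535 of all genes) at an unadjusted p under 0.05 without it, FKBP4 (0.40 ± 0.15) and STIP1 (0.34 ± 0.13), and DESeq2 also called 0. Over all genes 0.0528% were called, and 0.389% with the block. Between D2R and D6R all 9 estimates were below 0, from -0.54 (CHORDC1) to -0.076 (HSP90AA1), and 0 were called by edgeR or DESeq2, as of all genes (0% in either edgeR fit). An unadjusted p under 0.05 was found for 2 of 9 (STIP1 and CHORDC1) and 585 of all genes, and scaling by library size alone turned the HSP90AA1 estimate above 0. Between HSD and D6R 0 were called by edgeR or DESeq2 (0 of them and 1264 of all genes at an unadjusted p under 0.05), where 0.066% of all genes were called and 3.27% with the block. CDC37 was lower in D6R than in HSD by nearly the same amount in each run (-0.19, -0.19 and -0.18), with an adjusted p of 0.677 and of 0.166 with the block. AHSA1 (-0.15, -0.11 and -0.079) and HSP90AB1 (-0.11, -0.37 and -0.056) were also lower in 3 of 3 runs, as were 21.2% of all genes. HSP90AA1 was higher in 3 of 3 (0.0094, 0.090 and 0.42; 20.6% of all genes). The HSP90AB1 libraries did not overlap (6.62% of all genes), with adjusted p-values of 0.711 and 0.336.

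Changes from the end of heat to recovery differed in sign between the runs. From HSD to D2R, 8 of 9 genes were lower in run 1 (all but STIP1), whereas 8 of 9 were higher in run 2 and in run 3 (all but CDC37). The pattern of lower in run 1 and higher in runs 2 and 3 held for 7 of 9 genes, against 10.9% of all genes. It was read from these same 9 genes, which share their libraries, so the 2 shares are a description and not a test. From D2R to D6R, 9 of 9 genes were lower in run 2 and in run 3, and 6 of 9 were higher in run 1. For CHORDC1 these later changes were 0.53, -0.95 and -1.26 in runs 1 to 3. In HSD and in D6R, replicate 1 had the highest level of its group for 7 of 9 genes, so the run 1 differences rest on these libraries too. D2R replicate 1 had the lowest level of its group for 5 of 9 genes and the highest for none. Without that library, a check of the blocked fit added after the data were seen, 7 of 9 genes were called at 2 h against NHSD instead of 4 (AHSA1, CHORDC1 and HSP90AB1 in addition), where 0.522% of all genes were called as higher. In the fit without the block 3 of 9 were called at 2 h instead of 2, where 0.161% of all genes were. FKBP4 and STIP1 were then called as higher in D2R than in HSD with the block (0.60 and 0.49; 0.0321 and 0.0169; 0.329% of all genes), and STIP1 and CHORDC1 as lower in D6R than in D2R (-0.46 and -0.90; 0.0199 and 0.00725; 0.651% of all genes). Without D6R replicate 1, CHORDC1 was also called as lower there (-0.90; 0.035; 0.632% of all genes). Without D2R replicate 1 the blocked calls for heat went from 3 to 6 of 9 in undifferentiated cells (HSP90AB1, STIP1 and AHSA1 in addition), where 0.503% of all genes were called as higher. They went from 3 to 4 in differentiated cells (HSP90AB1; 0.406% of all genes), from 6 to 8 over both media (CHORDC1 and PTGES3; 3.83%) and from 3 to 4 at 6 h (STIP1; 0.896%). Leaving out HSUD replicate 2 gave 6 of 9 in undifferentiated cells (the same 3 genes in addition), where the share of all genes called as higher went from 0.383% to 3.45%. Leaving out D2R replicate 2 gave 5 (HSP90AB1 and AHSA1; 0.401% of all genes).

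**Figure D4:**
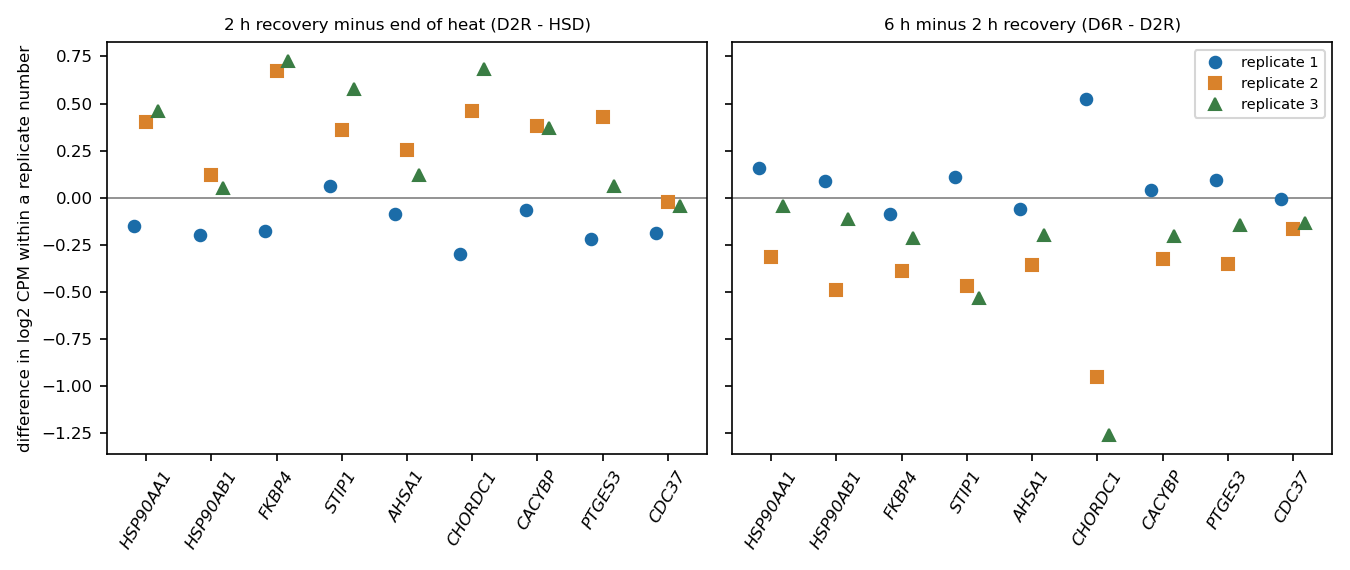
Difference in log2 CPM within each replicate number (y axis) for the 9 genes (x axis), from the end of heat to 2 h of recovery (left) and from 2 h to 6 h of recovery (right). In the left panel replicate 1 lies below 0 for all genes but STIP1 while replicates 2 and 3 lie above 0 for all but CDC37, and in the right panel replicates 2 and 3 lie below 0 for all 9 genes.

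How much of a gene's spread lay between the groups differed among the 9. With 6 groups of 3, part of the variance lies between groups, and between runs, without any effect. The shares over all genes were not computed. PTGES3 and CDC37 were called in no comparison in the fit of all libraries, with or without the block. Of the variance of log2 CPM over the 18 libraries, 94.4% lay between groups for HSP90AA1, 89.7% for FKBP4 and 82.8% for HSP90AB1. It was 78.6% for STIP1, 65.6% for CACYBP, 60.9% for CHORDC1, 56.8% for AHSA1, 51.5% for CDC37 and 44.2% for PTGES3. The share between runs was 38.7% for CDC37, 32.9% for AHSA1, 24.4% for CACYBP and 24% for PTGES3, and at most 7.01% for the other 5 genes. Run 3 had the lowest level for 8 of 9 genes in NHSUD, NHSD and HSD, for 7 of 9 in HSUD and for 6 of 9 in D6R. The exception was D2R, where run 3 was lowest for 4 and run 1 for 5 genes. For HSP90AA1, HSP90AB1 and FKBP4 the order of the group means had 1 step at which neighbouring groups did not overlap, the step from NHSUD to the next higher group. NHSD and NHSUD overlapped, as did all neighbours among the heated and recovery groups. STIP1 had its single such step between NHSD and NHSUD, and AHSA1, CHORDC1, CACYBP, PTGES3 and CDC37 had none.

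The genes whose profile over the 18 libraries was closest to that of HSP90AA1 were looked up among 9754 other named genes with a mean of at least 5 CPM. Closeness was the root mean square difference of log2 CPM after each gene was centred, and it is a description that shares libraries, runs and scaling. The 5 closest were HSPB1 (0.201), a small heat shock protein, SERPINH1 (0.288), the collagen chaperone HSP47, HIST1H2AC_1 (0.306), a histone gene, ZNF70 (0.312), a zinc finger gene, and DNAJA4 (0.316), a J-domain cochaperone. HSPB1 had means of 927 ± 73.5 CPM in NHSD, 1779 ± 264 in HSD, 1987 ± 358 in D2R and 1709 ± 332 in D6R (SD, n = 3). Among the other 8 genes of the set, FKBP4 was nearer to HSP90AA1 (0.144) than any of the 9754, and CACYBP (0.274) nearer than all but HSPB1. HSP90AB1 was at 0.359 and CDC37 at 0.531. The 5 genes closest to CDC37 were LSM12 (0.0584), PSMC1 (0.0591), INTS11 (0.0597), MRPL2 (0.06) and EMC10 (0.0618). The measure places genes of little variation close to each other.

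Further HSP90 cochaperones and regulators had a smaller median change with heat. Of 22 listed, all were tested, and with heat over both media 18 were higher and 4 lower, with a median log2 fold change of 0.12 (0.0045 over all genes). Among them 1 was called, AHSA2, a relative of AHSA1, which rose from 4.09 ± 1.15 CPM in NHSUD and 3.87 ± 0.826 in NHSD to 8.8 ± 2.02 in HSUD and 9.57 ± 1.67 in HSD (SD, n = 3; log2 fold change 1.20 ± 0.24 SE, edgeR, adjusted p of 0.0204). With the block 3 were called, AHSA2 (0.00664), the cyclophilin PPID (0.31 ± 0.11, 0.0102) and ITGB1BP2 (0.0442), a CHORD protein like CHORDC1, whose highest library was at 1.71 CPM. Of all genes, 0.488% were called as higher with heat over both media without the block and 3.13% with it. FKBP5, the immunophilin related to FKBP4 and a glucocorticoid target, was not called for heat (-0.0012 ± 0.15, adjusted p of 0.998; 0.968 with the block). At 2 h of recovery 0 of 22 were called (1 with the block, AHSA2 at 0.0233, where 0.165% of all genes were called as higher), and at 6 h 0 (0 with the block). AHSA2 was at 13.8 ± 6.19 CPM in D2R and 7.49 ± 2.36 in D6R.

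Of the organelle forms of HSP90, HSP90B1 was called in recovery and, with the block, for heat over both media, and TRAP1 in no comparison with or without the block. HSP90B1 (GRP94), the form of the endoplasmic reticulum, was at 817 ± 73.4 CPM in HSD against 663 ± 39.9 in NHSD (SD, n = 3), and at 1331 ± 81 in D2R and 1346 ± 49.9 in D6R. With heat over both media its change was 0.24 ± 0.079 (SE; edgeR, adjusted p of 0.252; 0.0374 with the block). It was called as higher at both recovery times against NHSD and against HSD, with D6R above HSD by 0.72 ± 0.11 (SE; edgeR, adjusted p of 0.0184), where the HSP90AA1 estimate was 0.17 ± 0.15 (0.761; 0.395 with the block). The difference between these genes was not tested. TRAP1, the mitochondrial form, was not called for heat (0.027 ± 0.092, 0.948) or at 6 h (-0.24 ± 0.13, 0.893).

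Of the 11 listed genes of the HSP70 system, which hands clients to HSP90, 7 were called as higher with heat over both media (HSPA6, DNAJB1, HSPA1A, HSPH1, HSPA8, HSPA1L and DNAJA1), where 0.488% of all genes were. The median over the list was 1.04. HSPA8, the constitutive HSC70, changed by 1.04 ± 0.19 (SE; edgeR, adjusted p of 0.0119), close in size to HSP90AA1, and was at 2947 ± 696 CPM in NHSD, 5867 ± 926 in HSD, 3846 ± 852 in D2R and 2690.4 ± 914 in D6R (SD, n = 3). From HSD to D6R the HSP70 list had 11 of 11 estimates below 0 and a median of -0.63 (0.013 over all genes). Of the list 3 were called as lower, where 7 of all 15158 genes were. With the block 4 were, where 3.27% of all genes were called in either direction. The HSP90 genes had 5 of 9 estimates below 0 (AHSA1 and PTGES3 turned above 0 under scaling by library size) and a median of -0.050. The HSPA1A, HSPA1L and HSPA6 genes are close copies, and the value of each alone is uncertain. HSPA8 was called as lower in D6R than in HSD only with the block (0.225; 0.00958).

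None of the 3 heat shock factor genes was called in any of the 11 comparisons, with or without the block. HSF1 was at 39.1 ± 4.8 CPM in NHSD, 37 ± 4.11 in HSD, 39.3 ± 3.31 in D2R and 38.5 ± 7.17 in D6R (SD, n = 3), with a heat change of -0.090 ± 0.11 (SE; edgeR, adjusted p of 0.811). Among 13 genes of well known HSP90 client proteins, 2 estimates were above and 11 below 0 with heat over both media, with a median of -0.074, and none was called in any comparison. The glucocorticoid receptor gene NR3C1, the classical client, was at 31.6 ± 1.52 CPM in NHSD, 29.7 ± 4.58 in HSD, 30 ± 3.78 in D2R and 32.7 ± 2.04 in D6R. These are transcript levels and do not measure the proteins or their activity.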

How the data were processed

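Poly-A RNA was sequenced from 18 libraries of 6 groups of 3, each pooled from 2 technical replicates per the labels. Per the labels' protocols, the authors used fastp 0.23.2 for trimming and STAR 2.7.9a for alignment to the ARS-UCD 1.3 genome, and featureCounts 2.0.3 is named in the submitters' processing notes. Its annotation, strand and multi-mapping settings are not stated there. The deposited values are raw read counts per gene. Of the counts from 1 to 19, 72.1% were even, so both mates of a pair may have been counted. All columns were matched by label, and no row lacked a gene name. 

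Genes were filtered with edgeR 4.0.16 (filterByExpr, minimum count of 10), leaving 15158, scaled by TMM and modelled by group means in 1 fit of the 18 libraries. Contrasts were tested by the robust quasi-likelihood test (two-sided) in R 4.3.3. The p-values were adjusted by the Benjamini-Hochberg method over all 15158 genes, with calls under 0.05. Standard errors come from the F statistic. Values are TMM-scaled CPM, and log2 CPM used a prior count of 2. The 95% intervals use the same standard errors. The replicate number paired the libraries: deviations from group means correlated at 0.135 to 0.596 in all 45 same-numbered pairs, with a median of -0.199 in the others. No 2 libraries of a group were duplicates (chi-square per gene of at least 63.5, where sampling noise gives 1). The edgeR fit was tested on simulated counts. All 9 genes are named, and closest genes and list genes follow a stated rule of distance, list membership and call. The 9 genes and the lists were chosen with earlier results of these data known. AHSA2P of the list is AHSA2 in the table. Alternatives were DESeq2 1.42.0, other scalings and filters, the compared groups alone, the replicate block, each library left out, and both HSP90 genes summed. Fits with the block and without 1 library were chosen after seeing the data. Promoter and protein sequences were not used here.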

Additional observations from a re-analysis of the deposited data

How the results depend on the processing

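The heat calls of HSP90AA1 and FKBP4 over both media were kept in 44 of 44 and 45 of 45 other fits, with changes of 0.91 to 1.05 and 0.72 to 0.86 on the log2 scale. The replicate number as a block raised the genes called from 1 to 3 for heat in differentiated cells, from 3 to 6 over both media, from 2 to 4 at 2 h and from 1 to 3 at 6 h against unheated cells. DESeq2 called 3, 5, 4 and 2 in these 4 comparisons, and the share of all genes that it called is not given here. Fitted on the compared groups alone, 0 were called for heat in undifferentiated (0) and differentiated cells (0) and at 2 h (0) and 6 h (0), which also leaves fewer residual degrees of freedom. With the block that fit called 5, 4, 4 and 3, and 7 over both media. Of all genes it called 0.895%, 0.308%, 0.14% and 0.648% as higher, and 3.04% over both media. For heat in undifferentiated cells 1 was called with DESeq2 size factors and 1 by library size alone, where 17 and 12 of all genes were called as higher. At 6 h 2 were called with a 5 CPM filter, 2 with no filter and 2 by library size alone. Of all genes, 3 were called as higher there with no filter and 3 by library size alone. With the 2 HSP90 genes summed, 1 was called for heat in undifferentiated cells, 0 in differentiated cells and 0 at 6 h. Without 1 library the count was 0 to 2 for heat in undifferentiated cells, 0 to 2 in differentiated cells and 1 to 2 at 6 h. With the block it was 1 to 6, 1 to 4, 3 to 7 at 2 h, 0 to 2 for 2 h against the end of heat and 0 to 2 for 6 h against 2 h. The share of all genes called moved between fits as well, so these counts cannot be read alone. For heat in undifferentiated cells with the block it went from 0.383% to 3.45% called as higher without HSUD replicate 2. Over the scalings the median of all genes ran from 0.0044 to 0.14 for 6 h against the end of heat. Estimates that were not called in the fit of all libraries changed sign in places. For HSP90AB1 at 2 h against the end of heat the estimate of -0.000764 became 0.0019 with DESeq2 size factors, 0.042 by library size, 0.0069 with the 5 CPM filter, 0.0019 in DESeq2, and 0.0084 (0.0013 with the block) on the compared groups. Library size alone gave 0.0059 for AHSA1 between media with heat, 0.0055, 0.022 and 0.0081 for HSP90AB1, CACYBP and PTGES3 in the difference of heat effects, -0.031 for CDC37 at 2 h against unheated cells, 0.0081 and 0.074 for AHSA1 and PTGES3 at 6 h against the end of heat, and 0.0062 for HSP90AA1 at 6 h against 2 h. With no filter the difference of heat effects of HSP90AB1 was 0.0013, and the summed pair stood at -0.016 at 6 h against the end of heat. Leaving out 1 library also turned some uncalled log2 estimates. For the medium effect without heat these ranges were -0.063 to 0.19 for AHSA1, -0.30 to 0.11 for CACYBP, -0.014 to 0.22 for CHORDC1 and -0.12 to 0.019 for PTGES3, and with the block -0.010 to 0.12 for AHSA1, -0.19 to 0.029 for CACYBP and -0.14 to 0.00049 for PTGES3. For the medium effect with heat these ranges were -0.15 to 0.031 for AHSA1, -0.23 to 0.089 for CACYBP and -0.19 to 0.090 for PTGES3, and with the block -0.15 to 0.041 for PTGES3. For the difference of the heat effects these ranges were -0.23 to 0.016 for AHSA1, -0.19 to 0.22 for CACYBP, -0.10 to 0.072 for CDC37, -0.096 to 0.14 for CHORDC1, -0.20 to 0.092 for FKBP4, -0.10 to 0.058 for HSP90AA1, -0.042 to 0.047 for HSP90AB1 and -0.14 to 0.14 for PTGES3, and with the block -0.11 to 0.10 for CACYBP, -0.073 to 0.022 for CDC37, -0.037 to 0.094 for CHORDC1, -0.20 to 0.082 for FKBP4, -0.10 to 0.057 for HSP90AA1, -0.051 to 0.038 for HSP90AB1 and -0.10 to 0.091 for PTGES3. For 2 h against unheated cells these ranges were -0.036 to 0.073 for CDC37, and with the block -0.032 to 0.074 for CDC37. For 6 h against unheated cells these ranges were -0.0066 to 0.52 for CHORDC1, and with the block -0.013 to 0.48 for CHORDC1. For 2 h against the end of heat these ranges were -0.11 to 0.090 for HSP90AB1 and -0.011 to 0.22 for PTGES3, and with the block -0.11 to 0.10 for HSP90AB1 and -0.025 to 0.20 for PTGES3. For 6 h against the end of heat these ranges were -0.055 to 0.20 for CACYBP, -0.14 to 0.078 for PTGES3 and -0.044 to 0.11 for STIP1, and with the block -0.13 to 0.026 for PTGES3 and -0.049 to 0.093 for STIP1. For 6 h against 2 h these ranges were -0.19 to 0.027 for HSP90AA1, and with the block -0.22 to 0.0042 for HSP90AA1. The causes were not tested. Counting error was small beside the spread between runs, so the number of runs limits the precision. Without the block the p-values rest on the spread between 3 repeats of 1 cell line, pooled over the groups fitted. With the block they rest on the spread that is left once differences between the runs are removed.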
